A study of Rattus norvegicus with 4 samples.

Results

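Myh7 and Myh6 encode the β and the α cardiac myosin heavy chain, the motor proteins of the thick filament in heart muscle cells. They were read in 4 RNA-seq libraries of neonatal rat ventricular myocytes, cells isolated from the ventricles of 2-day-old Sprague Dawley rats and kept in primary culture. Both genes were chosen by their Ensembl identifiers, ENSRNOG00000016983 for Myh7 and ENSRNOG00000025757 for Myh6, 2 of 26406 listed features. A member was to be used only with a mean of at least 100 RPKM, a read count divided by the length of the gene model in kilobases and by the depth of the library. The means over the 4 libraries were 1316 RPKM for Myh7 and 887 RPKM for Myh6, so both were used.

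The α chain hydrolyses ATP quickly and gives fast contraction, whereas the β chain is slower and more economical. In rat and mouse ventricle the β chain predominates before birth and the α chain after it, a change driven in large part by thyroid hormone. Hypertrophic and pressure-loading stimuli raise Myh7 and lower Myh6 in rodent hearts, and the balance of both is widely read as a sign of the fetal gene programme.

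All 4 cultures were transfected for 6 h, either with a negative control siRNA or with an siRNA against Chaer, a long noncoding RNA studied for its part in the growth of heart muscle cells. The medium was then changed, and cells were collected after 48 h. Phenylephrine, which stimulates α1-adrenergic receptors and enlarges cultured myocytes, was given at 50 µM to 1 culture of each siRNA. The question of the series was how far Chaer takes part in the gene expression response to this agonist. The 4 groups were control siRNA, Chaer siRNA, control siRNA with phenylephrine, and Chaer siRNA with phenylephrine, with 1 library each and no untransfected culture. How many hearts were pooled and whether the cultures were separate isolations are not stated in the labels. Without replicates, no value here has an error from biological variation, and the 95% intervals given in parentheses cover counting error only.

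The libraries held between 33944988 and 39155363 reads in listed features. Chaer was not among the features listed by name, and its lowering by the siRNA could not be read here. Of the identifiers, 0 could be paired with symbols through the reference table, so marker genes of other cell types that a ventricular culture can hold were not read. The mean levels per length of the 2 myosin genes ranked 45th for Myh7 and 58th for Myh6 among all features. A mean of at least 100 RPKM, which 716 features reached, was a condition for their use. These ranks therefore cannot check the myocyte label, which was not checked otherwise.

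Myh6 and Myh7 are tandem copies with long stretches of near-identical coding sequence. In the RefSeq annotation of the GRCr8 assembly they are neighbours on chromosome 15, both on the minus strand, with 2861 bp and 0 listed features between them. Each carries a microRNA gene within its span, mir-208a in Myh6 and mir-208b in Myh7, which are known to be made together with their host transcripts and to act on the balance of slow and fast myosins. The 2 mature sequences, from RefSeq (GRCr8), are shown because each neighbour holds a related microRNA of its own. Capitals mark the seed, bases 2 to 8 from the 5′ end, which is the same in both.
rno-miR-208a-3p: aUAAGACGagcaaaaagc
rno-miR-208b-3p: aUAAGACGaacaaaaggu
The former lies at chr15:32395568-32395585 and the latter at chr15:32421648-32421665, both on the minus strand, and 15 of 18 positions are identical. The levels of these microRNAs were not analysed here. The gene models behind the RPKM values were 5923 bp long for Myh7 and 5925 bp for Myh6, so their levels per length compare almost as their read counts do. How reads that match both genes were assigned is not given in the sources used here. Such reads would blur the difference between the genes if counted to both or to the wrong one.

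Myh7, the slow β chain, was lowest in unstimulated cells with control siRNA and highest with both Chaer siRNA and phenylephrine. The control siRNA library gave 756 RPKM (752 to 759), the Chaer siRNA library 1242 RPKM (1237 to 1246), and phenylephrine gave 1338 RPKM (1333 to 1343) under control siRNA and 1929 RPKM (1923 to 1934) under Chaer siRNA. The closest levels were those of Chaer siRNA alone and of phenylephrine with control siRNA, which differed by 7.78%, and the counting intervals of the 4 libraries did not overlap. The size of that gap depended on the scaling, with a log2 ratio of 0.11 under the authors' scaling and from 0.10 to 0.21 under the others. By number of reads Myh7 went from the 15th most abundant feature in the control siRNA library to the 5th in the library with both. This order of the 4 libraries was shared by 473 features (3.87%) of the 12226 whose mean reached 1 RPKM. The order of Myh6, given next, was shared by 1081 of them (8.84%).

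Myh6, the fast α chain, followed another order, with its lowest level in phenylephrine-treated cells with control siRNA and its highest in unstimulated cells with Chaer siRNA. It stood at 881 RPKM (877 to 885) in the control siRNA library and at 1079 RPKM (1075 to 1083) in the Chaer siRNA library. With phenylephrine it stood at 672 RPKM (668 to 675) under control siRNA and 918 RPKM (914 to 922) under Chaer siRNA. The library with both treatments was thus 4.20% above the untreated control siRNA library. That order turned when the 20 most abundant features were left out of the scaling, where the log2 ratio of the same libraries was -0.022 in place of 0.06. The 4 counting intervals did not overlap, but a difference of a few percent between single libraries has no replicate error to be read against.

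**Figure D1:**
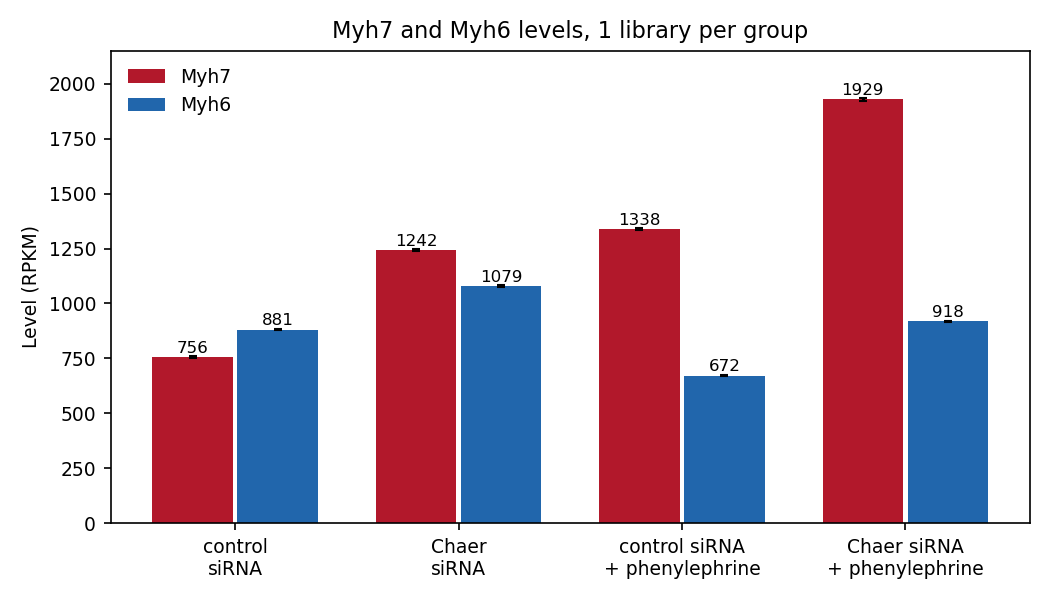
Bars give the level of Myh7 (red) and Myh6 (blue) in RPKM in each of the 4 libraries, 1 per group, and the error bars are 95% Poisson intervals of the counts, which are narrower than the line ends. Myh7 lies below Myh6 with control siRNA alone (756 against 881 RPKM) and above it in the other 3 libraries.

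The balance between both chains was taken within each library, where it does not depend on scaling between libraries. Myh7 made up 46.2% (46.0% to 46.3%, exact binomial) of the reads of both genes with control siRNA. Its share was 53.5% (53.4% to 53.6%) with Chaer siRNA, 66.6% (66.4% to 66.7%) with phenylephrine and control siRNA, and 67.7% (67.6% to 67.9%) with both. The fast chain had the more reads of the pair only in the control siRNA library. Which gene exceeded the other holds for the reads as counted, since how reads matching both genes were handled is not known. As a ratio of RPKM values, Myh7 to Myh6 was 0.858 (0.852 to 0.863) with control siRNA and 1.15 (1.14 to 1.16) with Chaer siRNA. With phenylephrine the ratio was 1.99 (1.98 to 2.00) under control siRNA and 2.10 (2.09 to 2.11) under Chaer siRNA. Both treated libraries therefore lay above both untreated ones, and the siRNAs were much closer to each other in treated than in untreated cells.

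**Figure D2:**
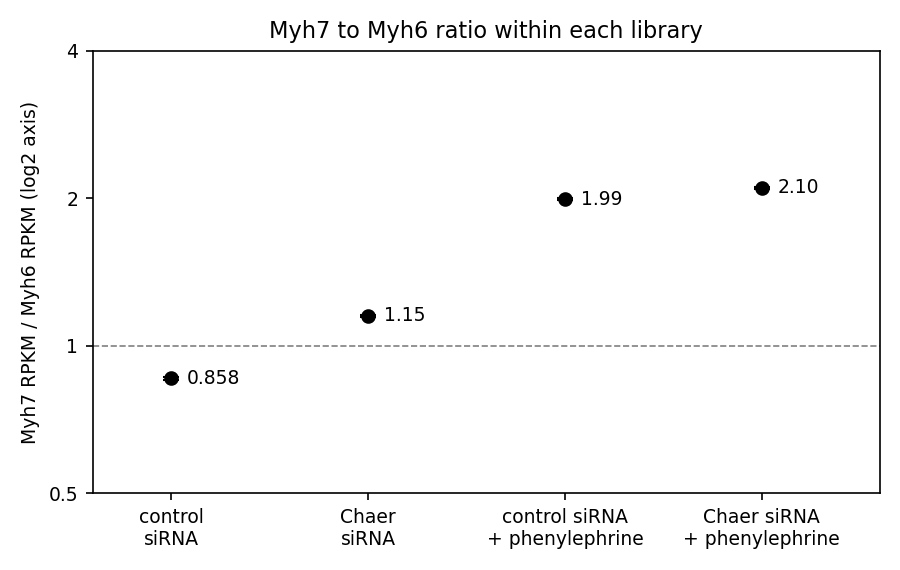
Points give the ratio of Myh7 RPKM to Myh6 RPKM in each library on a log2 axis, with 95% exact binomial intervals smaller than the points, and the dashed line marks equal RPKM. The ratio is below 1 only with control siRNA alone (0.858) and is 1.99 and 2.10 in the phenylephrine libraries.

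The first comparison was of phenylephrine in cells given control siRNA, in which Chaer was not targeted. The slow and the fast chain differed in opposite directions, with Myh7 1.77-fold higher (1.76 to 1.78) and Myh6 1.31 times lower (1.30 to 1.32) in the treated library. Per length this was a gain of 582 RPKM in Myh7 beside a loss of 209 RPKM in Myh6. The ratio of the pair was 2.32 times higher (2.30 to 2.34). Neither gene alone reached 2-fold, a size that 1.73% of the 12226 features did reach in this comparison. On the log2 scale with 1 RPKM added, Myh7 stood at 0.82 and Myh6 at -0.39, beside a median of -0.07 over all features. Myh7 lay above 98.2% of all features, and above 94.0% of the 716 features whose mean reached 100 RPKM. Myh6 lay above 11.5% of all features. The Myh7 difference was thus near the upper end of the distribution and that of Myh6 in its lower flank.

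With Chaer siRNA, phenylephrine went with the same 2 directions and smaller ratios. Myh7 was 1.55-fold higher (1.55 to 1.56) and Myh6 1.18 times lower (1.17 to 1.18), and the ratio of the pair was 1.83 times higher (1.81 to 1.84). At least 2-fold differences were found for 1.97% of features, again not for either myosin. The log2 ratios were 0.64 for Myh7 and -0.23 for Myh6, with a median of -0.10 over all features, and 96.5% of features lay below Myh7. For Myh6, 32.8% of features lay below it, so its lower level was well within the bulk of the distribution. In absolute terms Myh7 was 687 RPKM higher here, more than the 582 RPKM under control siRNA. The untreated library stood at 1242 in place of 756 RPKM. Which siRNA went with the larger Myh7 response thus depends on whether ratios or differences are compared.

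Chaer siRNA in unstimulated cells addressed the state of the pair without the agonist. Both chains were higher than with control siRNA, Myh7 1.64-fold (1.63 to 1.65) and Myh6 1.22-fold (1.22 to 1.23). A difference of at least 2-fold, which neither gene reached, was found in 2.13% of features. The ratio of the pair was 1.34 times higher (1.33 to 1.35), since the slow chain differed more. On the log2 scale Myh7 stood at 0.72, above 97.2% of features, and Myh6 at 0.29, above 81.7%, beside a median of 0.02. Among the 716 abundant features the corresponding shares were 94.7% and 72.5%. In bulk RNA, a different share of myocytes in the culture and a different amount of myosin RNA per myocyte cannot be told apart.

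Under phenylephrine, Chaer siRNA again went with more of both chains, now by similar factors. Myh7 was 1.44-fold higher (1.43 to 1.45) and Myh6 1.37-fold higher (1.36 to 1.38), and the ratio of the pair was only 1.05 times higher (1.05 to 1.06). In this comparison 1.85% of features reached 2-fold, without either myosin. The log2 ratios were 0.53 for Myh7 and 0.45 for Myh6 against a median of -0.03, above 94.4% and 92.3% of features. The gain per length was 591 RPKM for Myh7 and 246 RPKM for Myh6.

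**Figure D3:**
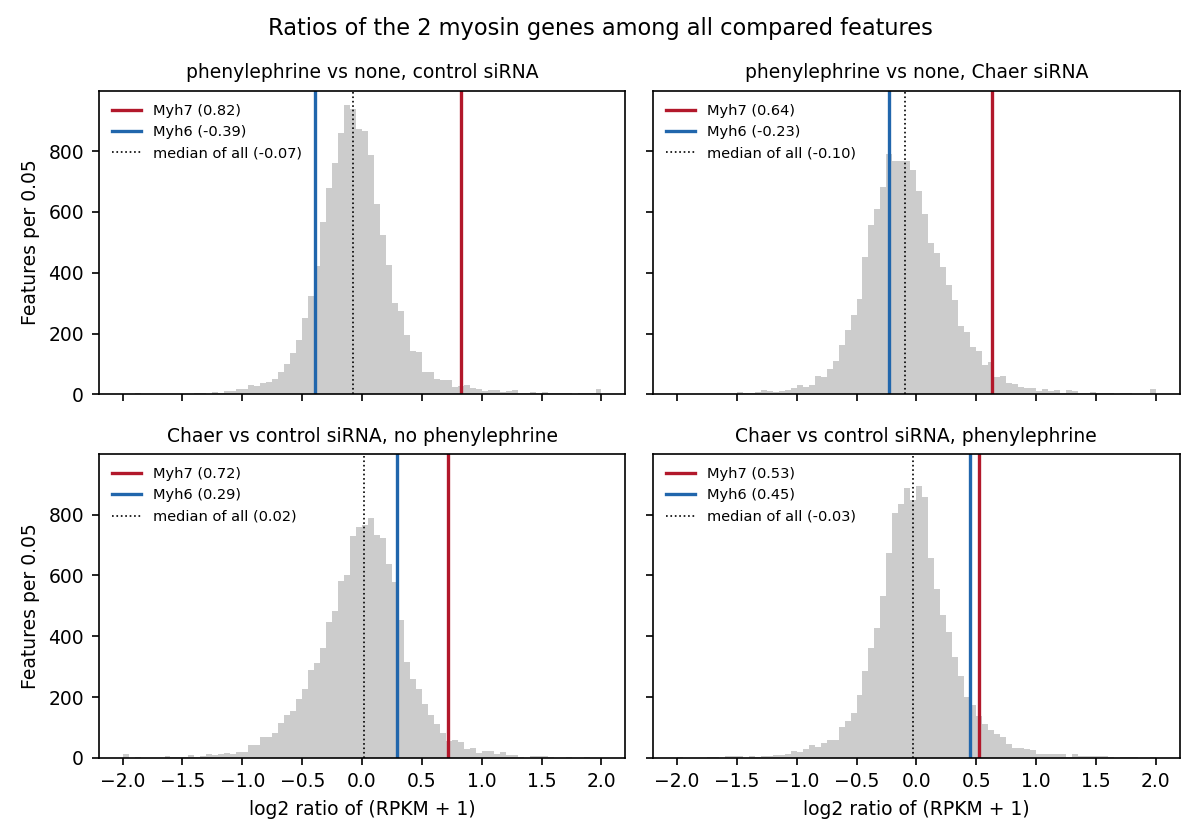
Grey histograms show the log2 ratio of (RPKM + 1) for the 12226 features whose mean reached 1 RPKM in the 4 comparisons, with values beyond 2 in either direction drawn at the edge, and coloured lines mark Myh7 and Myh6. With phenylephrine the genes lie on opposite sides of the dotted median (0.82 and -0.39 with control siRNA), and with Chaer siRNA both lie to its right (0.72 and 0.29 without phenylephrine).

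With a rule of 1.5-fold in place of 2-fold, Myh7 passed in 3 of the 4 comparisons and Myh6 in 0. Myh7 passed for phenylephrine with control siRNA, where 7.56% of all features did in either direction, for phenylephrine with Chaer siRNA, where 10.2% did, and for Chaer siRNA without phenylephrine, where 11.1% did. For Chaer siRNA with phenylephrine, where 8.78% of features passed, it stayed below at 1.44-fold.

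With phenylephrine the summed level of both myosin heavy chains differed less than the balance between them. With Chaer siRNA it differed more, except that without phenylephrine the order turned when the 20 most abundant features were left out of the scaling (1.339-fold for the sum, 1.342-fold for the ratio of the pair). The sum was 1637 RPKM with control siRNA, 2320 RPKM with Chaer siRNA, 2010 RPKM with control siRNA and phenylephrine, and 2847 RPKM with both. These sums made up 1.01%, 1.43%, 1.24% and 1.76% of the reads in listed features. Phenylephrine went with a sum 1.23 times higher under control siRNA (1.22 to 1.23) and 1.23 times higher under Chaer siRNA (1.22 to 1.23). Chaer siRNA went with a sum 1.42 times higher without (1.41 to 1.42) and 1.42 times higher with phenylephrine (1.41 to 1.42). On the log2 scale the departure of the sum from independent factors was -0.00117 with the authors' scaling, and between 0.00781 and 0.065 with the other scalings.

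The separate chains departed from independent factors in opposite directions. If the ratios for phenylephrine and for Chaer siRNA multiplied, Myh7 would stand at 2198 RPKM in the library with both, and 1929 RPKM was measured, 12.3% less. For Myh6 the product would be 823 RPKM, and 918 RPKM was measured, 11.6% more. The ratio of the pair would be 2.67 and was 2.10. Expressed as the log2 difference of the phenylephrine effects, Chaer siRNA minus control siRNA, the values were -0.19 (-0.20 to -0.18) for Myh7, 0.16 (0.15 to 0.17) for Myh6 and -0.35 (-0.36 to -0.33) for their ratio. The RPKM products and these log2 values for each gene are those of the authors' scaling. Over the 7 other pseudocounts and scalings the log2 value ran from -0.19 to -0.12 for Myh7 and from 0.16 to 0.22 for Myh6. The ends at -0.12 and 0.22 came with the 20 most abundant features left out of the scaling. A difference of at least 2-fold was found in 0.54% of features, and neither gene was among them. The median difference was -0.06 over all features, and -0.19 over the 716 features whose mean reached 100 RPKM, which is the Myh7 value to 2 decimals. Among those abundant features 50.3% lay below Myh7 and 89.0% below Myh6. The smaller Myh7 ratio under Chaer siRNA was thus at the middle of the abundant features. With 1 library per group the difference could not be tested against replicate cultures.

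Each factor was also adjusted for the other in an additive edgeR quasi-likelihood fit over all 4 libraries, which compares 2 libraries with 2 for each factor. In that fit Myh7 was called higher with phenylephrine, by 0.83 ± 0.19 (SE) on the log2 scale (edgeR adjusted p = 0.000175), where 15.4% of features were called in either direction. It was also called higher with Chaer siRNA, by 0.61 ± 0.19 (SE) (edgeR adjusted p = 0.00785), where 19.6% of features were called. Myh6 was not called for either factor. Its terms were -0.22 ± 0.18 (SE) for phenylephrine (edgeR adjusted p = 0.483) and 0.36 ± 0.18 (SE) for Chaer siRNA (edgeR adjusted p = 0.142). The spread behind these values is the departure from additivity borrowed across all features, and holds no variation between replicate cultures. Each feature had 1 residual degree of freedom, and the prior degrees of freedom were infinite. The p-values therefore rest on the spread pooled over features and not on that of each myosin gene. In models holding 1 factor only, so that the other entered the error, neither Myh7 term was called (edgeR adjusted p = 0.496 for phenylephrine and 0.645 for Chaer siRNA).

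**Figure D4:**
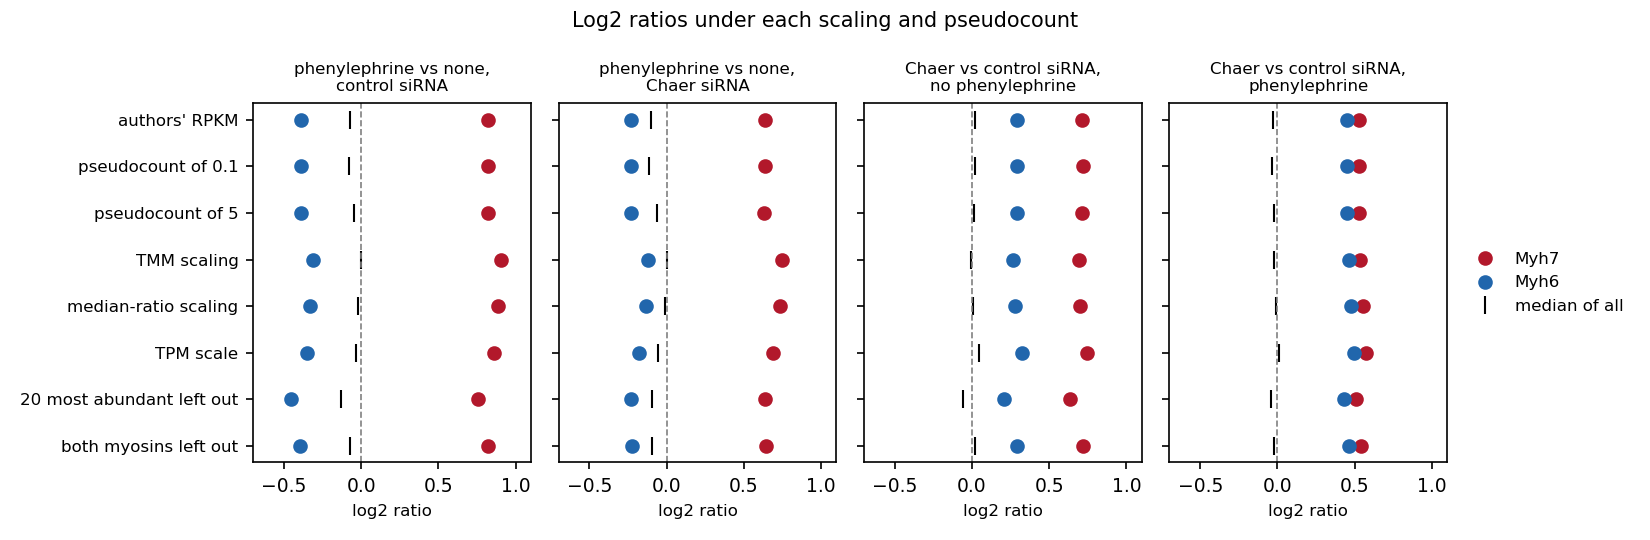
Points give the log2 ratio of Myh7 (red) and Myh6 (blue) in the 4 comparisons under the authors' RPKM and 7 other pseudocounts or scalings, and black ticks give the median of all 12226 features under the same setting. Myh7 stays right of 0 in all 4 panels, and Myh6 stays left of 0 for phenylephrine and right of 0 for Chaer siRNA, with the smallest value -0.12 under TMM scaling for phenylephrine with Chaer siRNA.

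The direction of both genes held in each of the 4 comparisons under all 7 other pseudocounts and scalings. For phenylephrine with control siRNA, the log2 ratio ranged from 0.76 to 0.90 for Myh7 and from -0.46 to -0.31 for Myh6. With Chaer siRNA, phenylephrine gave 0.63 to 0.75 for Myh7 and -0.23 to -0.12 for Myh6. The Myh6 value in this comparison was the smallest of the 8, at 0.12 below the median of all features under TMM scaling.

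The features whose profile over the 4 libraries was most like that of each gene were sought among 6572 other features whose mean reached 10 RPKM, as the smallest Euclidean distance between centred log2 profiles. For Myh7 this was ENSRNOG00000010753, at a distance of 0.13. Its levels were 5.37, 10.1, 9.76 and 16.4 RPKM with control siRNA, Chaer siRNA, control siRNA with phenylephrine and Chaer siRNA with phenylephrine, far below those of Myh7. The profiles had 1 RPKM added before the log2, which shrinks ratios at such low levels but hardly those of Myh7. Their plain RPKM ratios were therefore less alike than this distance shows. For Myh6 it was ENSRNOG00000021581, at a distance of 0.06, with 13.2, 15.5, 9.28 and 13.0 RPKM in the same libraries. Myh6 itself was at a distance of 1.08 from Myh7, and 3855 of the 6572 features were nearer to Myh7 than Myh6 was. With 4 libraries such likeness describes these profiles only, and other measures named other features for Myh6 and, by correlation, for Myh7.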

How the data were processed

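The members and lists were chosen with earlier results of these data known. Total RNA went into stranded TruSeq libraries, per the labels' protocols. The submitters' processing notes name TopHat2 and the build rn5. The counting tool, annotation, strand setting and any filters were not given in the sources used here. As the columns show per the file headers, the authors deposited whole-number read counts and RPKM values for 26406 features in each of 4 libraries, 1 per group. The read totals behind the RPKM values, recovered from count over RPKM, were between 35314303 and 40835172. Ratios were log2 of (RPKM + 1) over 12226 features whose mean reached 1 RPKM; fold changes with intervals are plain RPKM ratios. Intervals at 95% were exact Poisson for levels, exact binomial for shares and for ratios of 2 libraries or genes, and normal on log counts for ratios of ratios. These intervals cover counting error only. Without molecular identifiers, PCR copies count as separate reads, which can make the intervals too narrow even for that error. The additive fit used edgeR 4.0.16 (TMM, Benjamini-Hochberg over all 12226 features, adjusted p under 0.05), with DESeq2 1.42.0 as an alternative. Its SE is the log2 fold change over the square root of F. Named besides both members was the 1 nearest feature to each. Gene lists fixed by symbol could not be applied, since 0 identifiers were paired with symbols. No rn5 coordinates are printed, and microRNA positions are those of GRCr8. Alternatives were other pseudocounts, filters, scalings, a 1.5-fold rule and other models.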

Additional observations from a re-analysis of the deposited data

How the results depend on the processing

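Within each library the Myh7 to Myh6 ratio moved by less than its counting interval with a pseudocount of 0.1 or 5 and with plain read counts. Of the neighbouring levels of each gene, 1 pair turned, Myh6 with Chaer siRNA and phenylephrine over control siRNA (log2 0.06, and -0.022 without the 20 most abundant features in the scaling). The number of features past 2-fold depended on the pseudocount. In the order phenylephrine with control siRNA, phenylephrine with Chaer siRNA, Chaer siRNA without and with phenylephrine, and difference of the effects, it was 211, 241, 261, 226 and 66. With a pseudocount of 0.1 it was 351, 424, 463, 433 and 205, with 5 it was 93, 96, 92, 84 and 10, and with 1.5-fold it was 924, 1245, 1363, 1074 and 751. With a mean of at least 5 RPKM the last count was 32. The cause was not tested beyond these constructions. The additive edgeR fit called 1877 features for phenylephrine and 2397 for Chaer siRNA. With a mean of at least 5 RPKM these were 1145 and 1372, with DESeq2 903 and 1063, and with the other factor left out 8 and 1 (1217 and 1615 at an unadjusted p under 0.05). Scaling by library size alone turned the split for phenylephrine from 1071 higher and 806 lower to 703 and 1292. Over the 6 alternatives the adjusted p of Myh7 ran up to 0.496 for phenylephrine and 0.645 for Chaer siRNA, and both terms passed in the other 5. The adjusted p of Myh6 was at least 0.277 for phenylephrine and at least 0.0505 for Chaer siRNA. By correlation other features were the most similar, at distances of 0.64 from Myh7 and 0.26 from Myh6, and with a mean of at least 1 RPKM another feature was nearest to Myh6 (distance 0.019). No paired analysis with replicates was possible because each group held 1 library, although the additive fit adjusts each factor for the other. No library was left out, since a group would vanish.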
